A study of Mus musculus with 11 samples.

Results

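Astrocytes were the subject of this account, selected from single-cell RNA-seq data of the mouse brain cortex that followed the tissue from postnatal day 10 to 18 months of age and into experimental autoimmune encephalomyelitis (EAE), an induced autoimmune inflammation of the central nervous system. The cells were chosen by their own transcripts. Of 54646 barcodes, 50625 cells with 501 to 5999 detected genes and under 25% mitochondrial transcripts were kept. A kept cell was called an astrocyte when *Slc1a2*, *Slc1a3*, *Aldoc*, *Gpr37l1*, *Ntsr2* and *Bcan* together held at least 8 unique molecular identifiers (UMIs, counted RNA molecules), *Ttr* held under 10% of its UMIs, the endothelial genes *Cldn5* and *Flt1* held at most 2 UMIs, the microglial genes *C1qa* and *C1qb* at most 3, and the ependymal genes *Tmem212* and *Ccdc153* at most 1. By this rule 1243 of the 50625 cells were astrocytes, beside 19840 endothelial cells (ECs), 10937 microglia and 6836 cells of choroid plexus type with *Ttr* at 10% or more. At the edge of the rule, 25 cells held 8 marker UMIs and were just inside, while 22 cells held 7 and were just outside.

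All libraries came from brain cortex of C57BL/6 mice that was digested with papain and Liberase, freed of myelin in an albumin gradient and captured with the 10x Genomics 3′ v2 chemistry. The juvenile group (postnatal day 10, no treatment) had 4 libraries and the adult group (7 to 11 weeks, no treatment) had 3, each of tissue pooled from 6 mice. The aged group (18 months, no treatment) and the EAE group had 2 libraries each, of tissue pooled from 3 mice. EAE was induced in female mice of 7 to 11 weeks with a myelin oligodendrocyte glycoprotein peptide in Complete Freund's Adjuvant and with pertussis toxin, and tissue was taken at the disease peak. The untreated adult group is the control of the EAE group, so disease, adjuvant and toxin cannot be told apart in that comparison.

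Astrocytes are the glial cells that clear glutamate and potassium from the extracellular space, share ions and metabolites through gap junctions, and wrap blood vessels with their endfeet. In the rodent cortex they are still dividing and maturing in the first weeks after birth, and they then acquire transporters, connexins and metabolic enzymes. In inflammation they become reactive, a state for which the filament protein GFAP is the classic marker and which can include the machinery of antigen presentation.

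The astrocytes were unevenly spread over the libraries. Juvenile libraries 1 to 4 held 185, 169, 278 and 268 of them, which was 6.91%, 6.62%, 6.67% and 6.52% of their kept cells. Adult 1, 2 and 3 held 77, 15 and 15 (2.42%, 0.397% and 0.386%), Aged 1 and 2 held 97 and 75 (1.90% and 1.58%), and EAE 1 and 2 held 33 and 31 (0.397% and 0.383%). The Clopper-Pearson 95% interval, which covers counting error only, was 1.91% to 3.01% for Adult 1 and 0.222% to 0.653% and 0.216% to 0.635% for Adult 2 and 3. The juvenile share was above that of every other library, and Adult 2 and 3 lay at the level of the EAE libraries and not of Adult 1. The mean share over the units described below was 5.28 percentage points higher in juvenile than in adult cortex (exact permutation test, two-sided, p = 0.3333, the smallest that 2 against 2 units allow). It was 0.337 points higher in aged than in adult cortex (exact permutation p = 1) and the EAE-minus-adult difference was -1.02 points (exact permutation p = 0.667). With Adult 1 alone as control, the aged difference was -0.677 points and the EAE difference -2.03 points. Adult 2 and 3 together had 0.391%, at the mean of 0.390% over the EAE libraries. These are shares of recovered cells after dissociation, not of the tissue.

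**Figure D1:**
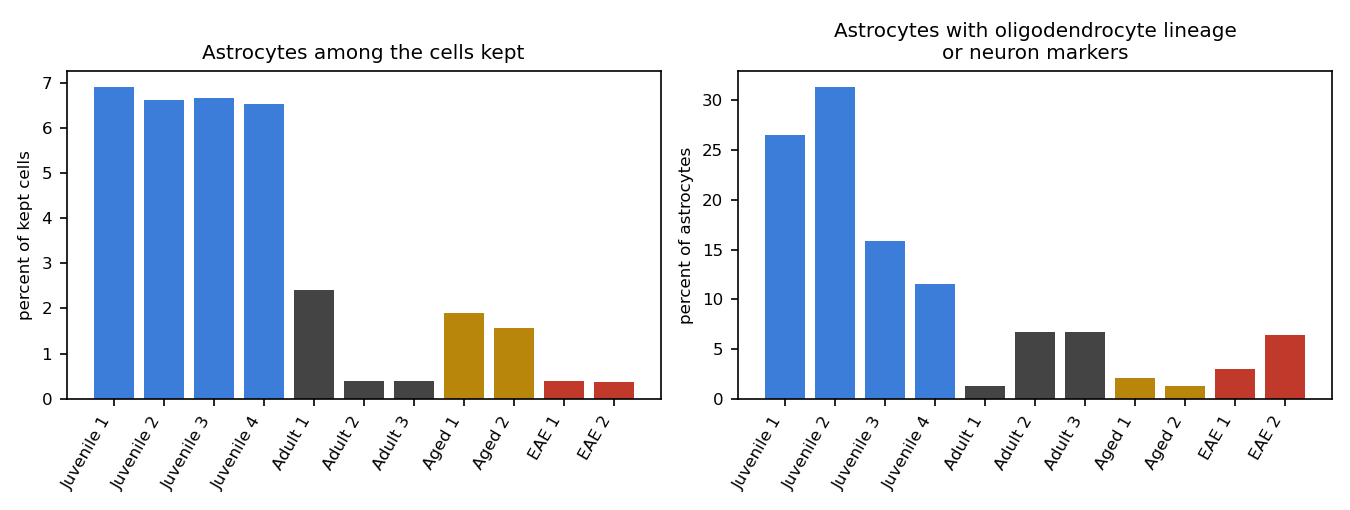
Astrocytes in the 11 libraries. The left panel plots astrocytes as a percentage of the kept cells, with 1 bar per library colored by group. The right panel plots, in the same way, the percentage of astrocytes with set counts of other markers. These were at least 3 UMIs of oligodendrocyte precursor, 10 of oligodendrocyte or 10 of neuron markers. The 4 juvenile bars are the highest in both panels, at 6.52% to 6.91% on the left and 11.6% to 31.4% on the right.

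Several libraries stood close together or apart. Counts in ECs of Juvenile 1 and 2, of Juvenile 3 and 4 and of Adult 2 and 3 differed by a chi-square per degree of freedom of 2.48, 2.27 and 1.60, above the value that sampling noise alone gives, against 9.44 to 11.6 between the 2 juvenile pairs and 18.7 to 19.7 between Adult 1 and the other two, and these pairs were summed as 1 unit each. In astrocytes, with fewer cells, the same pairs gave 1.93, 2.16 and 2.27, and Adult 1 differed from Adult 2 and 3 by 1.77 and 2.29. The 2 libraries of the aged group and the 2 of the EAE group differed by 3.18 and 2.31 on the same scale, the first above and the second within the range of the summed pairs, and with no further library of their group to compare them with they were kept as separate units. Whether they came from separate pools of mice is not given in the labels, so the p-values below measure the spread between 8 units (2 for each group) that may be partly technical. Adult 2 and 3 fell under the minimum of 20 astrocytes set for a library, which was met by their sum of 30 cells. Where either adult unit as the only control ended the call of a gene described by its values, an adjusted p of such a fit is given beside it. No barcode was shared between the astrocytes of 2 libraries of a group, although 10 to 113 barcodes were shared among all their kept cells.

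The depth differed as well. The libraries held 15755504 to 34326349 UMIs in all, and their astrocytes 721926, 621600, 1140107 and 921310 (juvenile), 189429, 29085 and 34146 (adult), 255260 and 209267 (aged) and 87390 and 82473 (EAE). The median astrocyte carried 2734 to 3504 UMIs in the juvenile libraries and 1620 to 2780 in the others. Levels below are CPM, the UMIs of a gene for every 1000000 UMIs summed over the astrocytes of a library. A single UMI is then worth 34.4 and 29.3 CPM in Adult 2 and 3 but about 1 CPM in the juvenile libraries (1.39, 1.61, 0.877 and 1.09). Values of a group follow the order of its replicate numbers.

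The cells carried astrocyte genes that the rule did not use. All 30 genes of an astrocyte identity list, among them *Aqp4*, *Gja1*, *Sox9* and *Aldh1l1*, were detected in the astrocytes of all 11 libraries, at a summed level of 43477 to 86186 CPM. The same sum was 5046 to 8816 CPM in ECs, 14364 to 45704 CPM in microglia, where *Cst3* and *Glul* are also expressed, and 5245 to 12513 CPM in cells of choroid plexus type. The 6 genes of the rule reached 11122 to 22753 CPM in astrocytes and at most 225 CPM in the other 3 cell types, a difference that the choice of the cells fixes.

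Transcripts of other cell types were present too. Choroid plexus genes summed to 5836, 7321, 11930 and 12058 CPM in juvenile, 60012, 19735 and 20061 CPM in adult, 6307 and 8535 CPM in aged and 7781 and 8876 CPM in EAE astrocytes, and ECs of the same libraries had 4176 to 52089 CPM, again with Adult 1 highest and Adult 2 and 3 next. Oligodendrocyte genes summed to 4714, 9282, 8434 and 897 CPM in juvenile astrocytes against 172 to 619 CPM elsewhere. Oligodendrocyte precursor genes summed to 508 to 957 CPM in juvenile libraries, 132, 1238 and 644 CPM in Adult 1, 2 and 3 and 103 to 454 CPM in the others. The juvenile libraries held 43, 46, 38 and 30 astrocytes with 3 or more UMIs of precursor markers, and each adult library held 1. Without cells with oligodendrocyte lineage or neuron transcripts the sum was 74.3 and 162 CPM in Adult 2 and 3 and 175 to 232 CPM in juvenile libraries. Cells counted as having such transcripts held at least 3 UMIs of precursor, 10 of oligodendrocyte or 10 of neuron markers. They were 26.5%, 31.4%, 15.8% and 11.6% of the juvenile astrocytes, against 1.30% to 6.67% in the other libraries. These limits are fixed counts, and juvenile cells were deeper. The juvenile cells under the limits still had 400 to 420 CPM of oligodendrocyte and 442 to 453 CPM of neuron genes. Endothelial genes summed to 1341 to 1962 CPM in adult astrocytes and 457 to 705 CPM in juvenile ones. In EAE 2 the macrophage and monocyte genes summed to 3019 CPM, with 107 of 188 *Lyz2* UMIs in 1 cell, and lymphocyte genes to 618 CPM, against 160.2 CPM in EAE 1 and 3.26 to 86.01 CPM elsewhere. Microglia genes summed to 950 and 1625 CPM in EAE 1 and 2. Neuroblast genes summed to 572 CPM in EAE 1 and at most 70.8 CPM elsewhere, and erythrocyte genes to 7166 CPM in Juvenile 1, 5913 CPM in Adult 1 and 45.8 to 1257 CPM elsewhere. Fibroblast genes, a list of 6, summed to 2604, 2246, 607 and 852 CPM in juvenile astrocytes and to 47.1 to 75.2 CPM in juvenile ECs. In astrocytes of the other libraries the sum was 0 to 42.2 CPM. There *Dcn*, *Lum* and *Col3a1* were at 0, while *Col1a1* or *Col1a2* was detected in all of them but Adult 2. Mural cell genes, a list of 7, summed to 1346, 911, 398 and 675 CPM in juvenile and 24.3 to 322 CPM in other astrocytes. Without cells holding 5 or more UMIs of another cell type's list, the fibroblast sum was 52.4 to 72.8 CPM and the mural sum 103 to 188 CPM in juvenile astrocytes. The choroid plexus and erythrocyte lists were not counted in that setting, here and below. Choroid plexus genes still summed to 65578 CPM there in Adult 1, and erythrocyte genes to 14694 CPM in Juvenile 1. The parts of other cell types' transcripts in the results were not tested. Without cells holding 5 or more UMIs of another cell type's list, 30 called results for named genes lost their call and 132 did not. Without cells with oligodendrocyte lineage or neuron transcripts these were 22 and 201. Results whose gene was no longer tested are in neither count. With RLE size factors, where all were tested, the counts were 1 and 228.

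Of the rule genes, *Aldoc*, *Gpr37l1* and *Ntsr2* shifted with age, given here as a description because the rule genes chose the cells. *Slc1a3* is not reported here. *Slc1a2*, the main glutamate transporter, stood at 3376, 3525, 5061 and 5287 CPM in juvenile, 3463, 3369 and 2753 CPM in adult, 3851 and 3880.2 CPM in aged and 3479 and 3686 CPM in EAE astrocytes. *Aldoc*, the brain form of the glycolytic enzyme aldolase, went from 1637, 1898, 2549.8 and 2804 CPM in juvenile to 4614, 4985 and 4012 CPM in adult and 9512 and 8922 CPM in aged libraries. *Gpr37l1*, a receptor of mature astrocytes, had 983, 951, 988 and 991 CPM in juvenile and 2196, 2132 and 3075 CPM in adult libraries. *Slc1a2* overlapped between juvenile and older libraries, whereas *Aldoc* and *Gpr37l1* did not overlap between juvenile and adult astrocytes. The neurotensin receptor gene *Ntsr2* followed *Aldoc* (658, 491, 1013 and 897 CPM juvenile, 1684, 1616 and 1757 CPM adult, 2233 and 2136 CPM aged), and the proteoglycan gene *Bcan* lay between 1179 and 1940 CPM in all 11 libraries.

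Juvenile and adult astrocytes were compared to ask what changes between the second postnatal week and maturity. Of 4427 genes tested, 168 were higher in juvenile astrocytes (3.79%) and 259 were lower (5.85%) at an adjusted p under 0.05 in edgeR's quasi-likelihood test with Benjamini-Hochberg adjustment over all tested genes. With Adult 1 as the only control 157 were higher and 230 lower. With Adult 2 and 3 as the only controls 15 were higher and 41 lower, and 55 of the 427 calls were made there too. Without astrocytes that carried at least 5 UMIs of another cell type's list, 85 were higher and 137 lower of 1360 tested. That choice was made after seeing the data and left the choroid plexus and erythrocyte lists uncounted. With no filter on low counts 432 were higher and 211 lower of 18820 tested, so the larger direction depended on the filter. Outside the kinds of genes left out of naming, 9 genes that were higher in juvenile astrocytes and 31 that were lower were called with either adult unit alone, and not all of these are named. That class was formed after the values were seen. Lack of overlap between libraries was a condition for naming the largest changes. Where it is stated below it is a description and no further result. Of the comparisons below, 3 share the adult units and 2 share the juvenile units, so each is given by its own values. In all of them a fold change is a log2 difference between group averages of 2 units.

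Among the genes that were lower in juvenile astrocytes, the largest change was in *Etnppl* (GRCm38 chr3:130617448-130637521, + strand), which encodes an enzyme that breaks down phosphoethanolamine and marks mature astrocytes. Its level was 0, 1.61, 0.877 and 0 CPM in the juvenile libraries, 143, 68.8 and 29.3 CPM in the adult and 125 and 115 CPM in the aged ones. All juvenile libraries together held 2 UMIs, and every other library lay above them. The adult level was 202 times the juvenile one by counts (95% interval 51.3 to 1746, for counting error only), and the gene was called in all 19 alternatives (log2 fold change -7.29, SE 0.61, edgeR adjusted p = 3.0e-08). From juvenile to aged astrocytes the fold change was 7.30 log2 (SE 0.54, edgeR adjusted p = 3.2e-09).

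Of 18 tested genes of gap junctions, water and ion transport, 4 were lower in juvenile than adult astrocytes and 1 was higher. Of all genes 5.85% were lower and 3.79% higher. The list median was -0.28 log2 against -0.01 over all genes. *Gjb6* (chr14:57123303-57133611, - strand), which encodes the gap junction protein connexin 30, rose from 175, 137, 205 and 199 CPM in juvenile to 633, 688 and 498 CPM in adult and 1089 and 889 CPM in aged astrocytes, with no overlap between the groups (log2 fold change -1.95, SE 0.25, edgeR adjusted p = 1.5e-05). *Kcnk1*, the potassium channel TWIK1, had 109, 113, 203 and 178 CPM in juvenile and 528, 447 and 322 CPM in adult libraries (log2 fold change -1.80, SE 0.31, edgeR adjusted p = 5.0e-04), a call that was lost with Adult 2 and 3 alone (adjusted p = 0.15). *Kcnj10*, the potassium channel Kir4.1, moved the other way, from 136, 177, 242 and 209 CPM in juvenile to 68.6, 34.4 and 58.6 CPM in adult and 70.5 and 66.9 CPM in aged astrocytes. It was called against the adult units (log2 fold change 1.42, SE 0.38, edgeR adjusted p = 0.018) but not with Adult 1 alone (adjusted p = 0.079), and it was called again between aged and juvenile astrocytes (-1.37 log2 (SE 0.31, edgeR adjusted p = 0.0032)). Between those 2 ages, where 9.94% of all genes were higher in aged and 8.7% lower, 7 genes of this list were higher in aged, and *Kcnj10* was among those that were lower.

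Genes of uptake and turnover of transmitters were called in both directions. Of 14 tested, 2 were higher in juvenile astrocytes and 2 lower, beside 3.79% and 5.85% of all genes. Counts this small are not read as a change of the list. The higher ones were *Slc38a1* and *Slc1a4*, both carriers of neutral amino acids, the second with edgeR adjusted p = 0.36 without cells holding other types' UMIs. *Glul* and *Slc7a10* were lower. *Glul*, the glutamine synthetase that converts glutamate, stood at 1942, 2275, 2736 and 2900.2 CPM in juvenile, 3949, 2854 and 3280.0 CPM in adult and 5892 and 5027 CPM in aged astrocytes. The juvenile libraries overlapped with Adult 2, the adult call was at the threshold (log2 fold change -0.71, SE 0.22, edgeR adjusted p = 0.047; called in 7 of 19 alternatives, with adjusted p = 0.51 with Adult 2 and 3 alone and 0.28 without cells holding other types' UMIs), and the aged call held in 19 of 19 (1.27 log2 (SE 0.22, edgeR adjusted p = 2.9e-04)). *Slc38a1* had 77.6, 72.4, 105 and 85.7 CPM in juvenile and 15.8, 0 and 0 CPM in adult libraries (log2 fold change 2.65, SE 0.66, edgeR adjusted p = 0.012; with Adult 1 alone, adjusted p = 0.053, and with Adult 2 and 3 alone, 0.14). The exchanger gene *Slc7a10* went from 134, 179, 123 and 124 CPM to 517, 309 and 205 CPM (log2 fold change -1.77, SE 0.29, edgeR adjusted p = 2.8e-04; with Adult 2 and 3 alone, adjusted p = 0.31). *Grin2c*, a subunit of the NMDA receptor and not a member of the lists, rose from 45.7, 48.3, 76.3 and 59.7 CPM to 259, 309 and 176 CPM and was at 360.4 and 349 CPM in aged astrocytes (log2 fold change -2.29, SE 0.29, edgeR adjusted p = 1.4e-05).

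Genes of glycolysis, glycogen and lactate were lower in juvenile than adult astrocytes in 7 of 19 cases tested and higher in none. Of all genes 5.85% were lower and 3.79% higher. Of the 19 genes, 18 were fitted below 0, with a list median of -0.78 log2. The largest changes among the called members were in *Pfkp*, *Pgk1*, *Pygm* and *Slc2a1*. *Slc2a1*, the glucose transporter GLUT1, stood at 72.03, 62.7, 57.01 and 64.04 CPM in juvenile, 290.4, 206 and 264 CPM in adult and 235 and 373 CPM in aged astrocytes, without overlap (log2 fold change -2.27, SE 0.30, edgeR adjusted p = 1.8e-05). The gene is also an EC transcript, at 898 CPM in juvenile and 2240.0 CPM in adult ECs, and the juvenile-minus-adult change was not called as different between the cell types (difference of -0.61, edgeR adjusted p = 0.38). *Pfkp*, a phosphofructokinase, had 26.3, 25.7, 28.1 and 24.96 CPM in juvenile and 174, 241 and 58.6 CPM in adult libraries (log2 fold change -2.81, SE 0.37, edgeR adjusted p = 1.8e-05; with Adult 2 and 3 alone, adjusted p = 0.077). With Adult 1 alone 6 genes of the list were lower in juvenile astrocytes, with Adult 2 and 3 alone 1 was, and without cells that carried other types' transcripts 2 of 12 were. In the last of these settings 137 of 1360 genes were lower over all. Aged against juvenile astrocytes had 10 of the 19 higher and none lower (median 1.10 log2), beside 9.94% and 8.7% of all genes. This comparison was added after the cell counts were seen. The higher genes included *Pygm*, the glycogen phosphorylase, at 18.01, 4.83, 15.8 and 18.5 CPM in juvenile and 133 and 81.2 CPM in aged libraries (2.97 log2 (SE 0.37, edgeR adjusted p = 3.8e-06)).

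Genes of metal and redox defence formed another list. Of 18 tested, 4 were lower in juvenile than adult astrocytes and none was higher, beside 5.85% and 3.79% of all genes. The same 4 (*Mt1*, *Mt2*, *Gstm1* and *Gstm5*) were among 7 that were higher in aged than juvenile cells, beside 9.94% of all genes. *Gstm5* had edgeR adjusted p = 0.086 between juvenile and adult cells without those holding other types' UMIs. The metallothionein gene *Mt1* stood at 1565, 1606, 2945 and 2728 CPM in juvenile, 6842, 13203 and 6882 CPM in adult and 12470.0 and 12577 CPM in aged astrocytes (log2 fold change -2.06, SE 0.24, edgeR adjusted p = 1.3e-05). Aged astrocytes exceeded juvenile ones by 2.61 log2 (SE 0.25, edgeR adjusted p = 3.3e-07) for *Mt1* and by 2.35 log2 (SE 0.26, edgeR adjusted p = 2.3e-06) for *Mt2*. *Gstm1*, a glutathione transferase, had 434, 594, 743 and 826 CPM, 1747, 2304 and 1435 CPM and 2872 and 3001 CPM at the 3 ages, again without overlap (log2 fold change -1.64, SE 0.23, edgeR adjusted p = 4.6e-05). In ECs *Mt1* moved further, from 45.2 CPM in juvenile to 719 CPM in adult cells, so its juvenile-minus-adult log2 difference was 2.09 higher in astrocytes than in ECs (edgeR adjusted p = 1.2e-14).

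**Figure D2:**
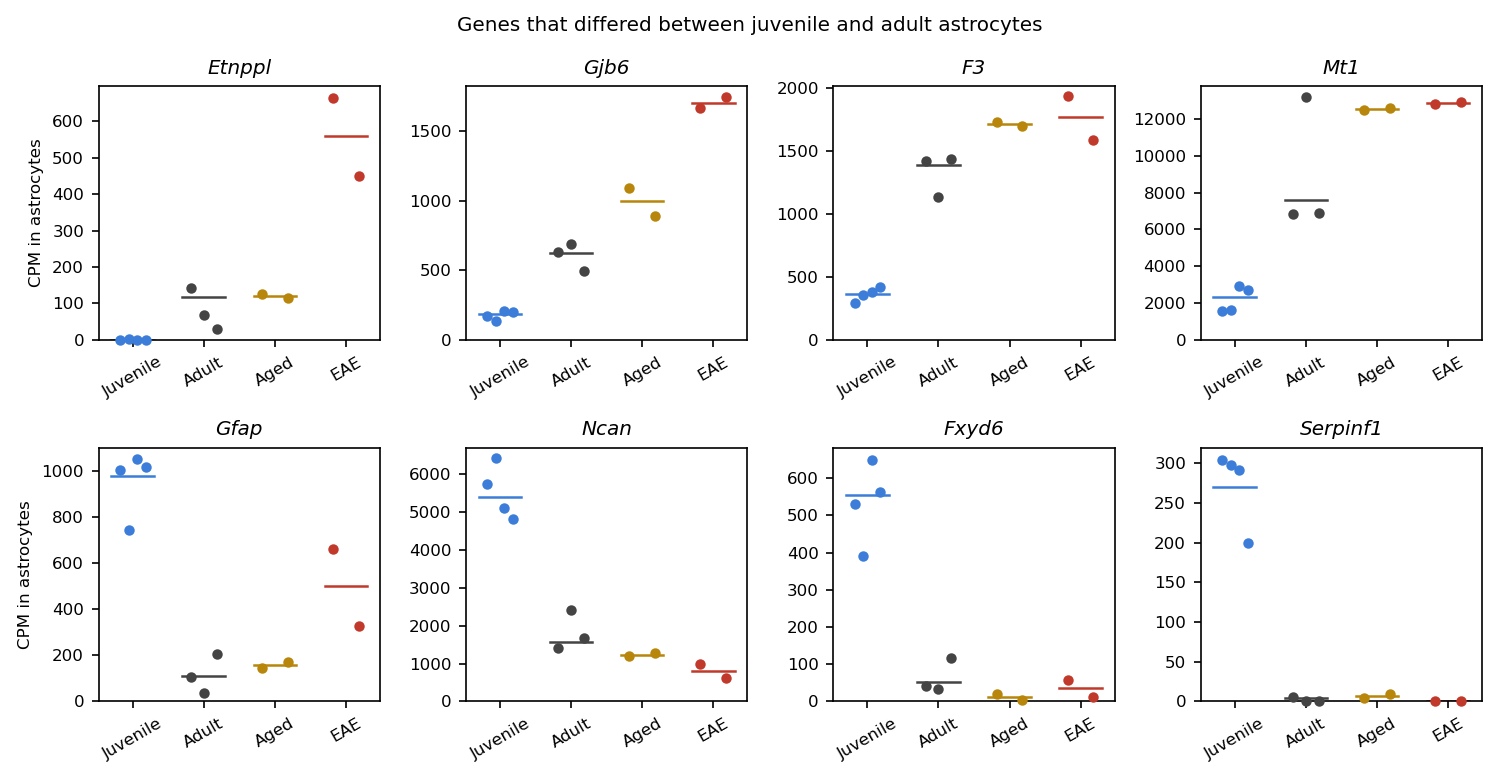
Levels of 8 genes in astrocytes of each library. Points are libraries in CPM on a linear axis that starts at 0, grouped as juvenile, adult, aged and EAE, and the horizontal bar is the level over all astrocytes of the group; *Etnppl*, *Gjb6*, *F3* and *Mt1* are lowest in the juvenile libraries, whereas *Ncan*, *Fxyd6* and *Serpinf1* are highest there, and *Gfap* is high in juvenile and raised in EAE libraries.

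Further genes were lower in juvenile than adult astrocytes. *F3*, which encodes tissue factor, the initiator of blood clotting, went from 294, 356, 379 and 417 CPM in juvenile to 1420.1, 1135 and 1435 CPM in adult and 1732 and 1701 CPM in aged astrocytes (log2 fold change -2.10, SE 0.23, edgeR adjusted p = 2.8e-06). *Clu*, the secreted chaperone clusterin, had 2399, 2596, 4033 and 4030.1 CPM in juvenile and 7137, 8217 and 6472 CPM in adult libraries (log2 fold change -1.31, SE 0.22, edgeR adjusted p = 3.7e-04). The chemokine gene *Cxcl14* stood at 269, 322, 368 and 394 CPM, 633, 1272 and 644 CPM and 1559 and 1539 CPM at the 3 ages (log2 fold change -1.35, SE 0.24, edgeR adjusted p = 6.3e-04). None of the 3 overlapped between juvenile and adult libraries, which describes genes chosen by their values and is no further result. *Ntm*, a cell adhesion protein of the IgLON family, was highest in the adults, at 369.8, 405, 446 and 360.4 CPM in juvenile, 1341, 1959.8 and 966 CPM in adult and 697 and 803 CPM in aged astrocytes (log2 fold change -1.97, SE 0.23, edgeR adjusted p = 6.6e-06). *Mertk*, a receptor with which astrocytes take up synaptic debris, had 66.5, 62.7, 70.2 and 82.5 CPM in juvenile and 243, 241 and 234 CPM in adult libraries (log2 fold change -1.96, SE 0.28, edgeR adjusted p = 4.3e-05). *Cyp4f15*, a cytochrome P450 of fatty acid metabolism, stood at 15.2, 48.3, 36.8 and 43.4 CPM and 169, 413 and 264 CPM (log2 fold change -2.84, SE 0.33, edgeR adjusted p = 4.5e-06).

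The synapse-organizing list held members of both directions, with 2 of 16 higher in juvenile astrocytes (*Sparc* and *Ptn*) and 5 lower (*Gpc5*, *Megf10*, *Mertk*, *Cadm1* and *Il33*). Of all genes 3.79% were higher and 5.85% lower. *Sparc*, which limits synapse formation, had 1234, 1376, 798 and 954 CPM in juvenile, 348, 172 and 146 CPM in adult and 289.9 and 349 CPM in aged astrocytes (log2 fold change 1.78, SE 0.32, edgeR adjusted p = 0.0011). It is an abundant EC transcript, at 5830.1 CPM in juvenile and 2764 CPM in adult ECs, and fibroblasts and mural cells, whose genes were highest in juvenile astrocytes, express it too. Without cells that carried other types' transcripts *Sparc* was called (log2 fold change 1.28, edgeR adjusted p = 0.0094). Without cells with oligodendrocyte lineage or neuron transcripts *Ptn* and *Megf10* were not (adjusted p = 0.051 and 0.056). *Il33*, a nuclear cytokine, had 26.3, 20.9, 15.8 and 22.8 CPM in juvenile and 127, 68.8 and 117 CPM in adult astrocytes (log2 fold change -2.65, SE 0.40, edgeR adjusted p = 8.8e-05; with Adult 2 and 3 alone, adjusted p = 0.19). The adhesion gene *Cadm1* went from 279.8, 301, 254 and 262 CPM to 523, 859.5 and 615 CPM (log2 fold change -1.33, SE 0.25, edgeR adjusted p = 0.0011).

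Some receptors and signals to vessels were called. *Ednrb*, the endothelin receptor B, fell from 587, 669, 740.3 and 713 CPM in juvenile to 290.4, 138 and 351 CPM in adult and 274 and 186 CPM in aged astrocytes, without overlap (log2 fold change 1.11, SE 0.28, edgeR adjusted p = 0.013; with Adult 1 alone, adjusted p = 0.066). *Fgfr3*, a receptor for fibroblast growth factors, went up from 306, 294, 327 and 313 CPM to 480.4, 688 and 732 CPM (log2 fold change -1.07, SE 0.25, edgeR adjusted p = 0.0081; with Adult 1 alone, adjusted p = 0.056). In all, 1 of 17 tested receptor genes was higher and 3 lower in juvenile astrocytes, beside 3.79% and 5.85% of all genes, and counts this small are not read as a change of the list. *Vegfa*, the growth factor of vessels, rose from 98.3, 105, 125 and 118 CPM in juvenile to 222, 344 and 264 CPM in adult and 282 and 258 CPM in aged astrocytes (log2 fold change -1.34, SE 0.27, edgeR adjusted p = 0.0020; with Adult 2 and 3 alone, adjusted p = 0.063). *Igfbp2*, a binding protein of insulin-like growth factors, was higher in juvenile libraries at 1461, 1557, 774 and 815 CPM than in adult ones at 443, 378 and 410.0 CPM (log2 fold change 1.25, SE 0.29, edgeR adjusted p = 0.0073). Its call was lost with Adult 1 alone (adjusted p = 0.062) and without cells that carried other types' transcripts (adjusted p = 0.20).

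Among the genes that were higher in juvenile astrocytes, *Gfap* (chr11:102887336-102900912, - strand) stood at 1008, 745, 1053 and 1019 CPM in juvenile, 106, 34.4 and 205 CPM in adult and 145 and 172 CPM in aged libraries, with no overlap (log2 fold change 2.90, SE 0.33, edgeR adjusted p = 4.5e-06). It was called with either adult unit alone, and missed the threshold once cells with other types' transcripts were left out (adjusted p = 0.097). *Ncan*, the perineuronal proteoglycan neurocan, fell from 5746, 6420.5, 5103 and 4825 CPM to 1409.5, 2407 and 1669 CPM and 1195 and 1276 CPM (log2 fold change 1.54, SE 0.23, edgeR adjusted p = 7.7e-05). *Tnc*, the matrix protein tenascin C, had 147, 151, 190.3 and 201 CPM in juvenile and 26.4, 0 and 29.3 CPM in adult libraries (log2 fold change 2.66, SE 0.48, edgeR adjusted p = 6.3e-04; with Adult 2 and 3 alone, adjusted p = 0.086). Of 14 tested matrix genes 3 were higher in juvenile astrocytes (*Ncan*, *Tnc* and the collagen chaperone gene *Serpinh1*) and 1 was lower (*Sdc4*, a surface proteoglycan). Of all genes 3.79% were higher and 5.85% lower. *Serpinh1* is also a fibroblast transcript, and it was not called without cells that carried other types' transcripts (adjusted p = 0.077).

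*Serpinf1* (chr11:75409769-75422701, - strand), which encodes the secreted factor PEDF, had 305, 298, 291 and 199.7 CPM in juvenile astrocytes and 1 UMI in all adult astrocytes together. The juvenile level was 68.3 times the adult one by counts (95% interval 12.2 to 2702, for counting error only; log2 fold change 5.85, SE 0.65, edgeR adjusted p = 4.5e-06). Fibroblast and mural genes were also highest in the juvenile astrocytes, and without cells that carried other types' transcripts *Serpinf1* stood at 165 CPM in juvenile cells and had no adult UMI (adjusted p = 0.0025). *Fxyd6*, a regulator of the sodium pump, fell from 531, 391, 649.9 and 562 CPM in juvenile to 42.2, 34.4 and 117 CPM in adult and 19.6 and 4.78 CPM in aged astrocytes (log2 fold change 3.15, SE 0.39, edgeR adjusted p = 1.3e-05). *Fxyd6* fell further in astrocytes than in ECs (difference of 2.72 log2). This is a description, because the gene was chosen by its change in the same astrocytes. The median of that difference over all genes was 0.20 log2, and 1.09 log2 without Adult 1.

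*Myoc*, which encodes the secreted protein myocilin, had 305, 51.5, 342 and 355 CPM in juvenile astrocytes, 2 UMIs in Adult 1 and none in the aged and EAE libraries. Its UMIs lay in 15, 8, 26 and 22 cells of the juvenile libraries, so it marked a minority of them. It was called without cells that carried other types' transcripts too (adjusted p = 6.3e-04), but not with Adult 2 and 3 alone (adjusted p = 0.16). The tubulin gene *Tubb4a*, at 222, 269, 301 and 52.1 CPM in juvenile and 15.8, 0 and 0 CPM in adult astrocytes, is also an oligodendrocyte transcript, and it was not tested once cells with oligodendrocyte lineage or neuron transcripts were left out. The same was so of *Tmeff2* and *Lpar1*, which had no UMI in adult astrocytes, and 56 of 118 *Tmeff2* UMIs of Juvenile 3 lay in 1 cell. *Emcn* and *Tinagl1*, by contrast, were lower in juvenile astrocytes, though with neither adult unit alone (adjusted p = 0.063 to 0.12), and are EC transcripts, at 689 and 604 CPM in adult ECs against 42.2, 138 and 58.6 and 52.8, 138 and 87.9 CPM in Adult 1 to 3 astrocytes.

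Lipid genes went both ways. Of 28 tested genes of sterol and fatty acid synthesis and transport, 5 were higher in juvenile than adult astrocytes and 3 lower (list median 0.42 log2). Of all genes 3.79% were higher and 5.85% lower. In aged against juvenile cells 11 were lower and 4 higher, beside 8.7% and 9.94% of all genes. The share of higher ones was thus near that of all genes. *Fabp7*, the brain fatty acid-binding protein of radial glia and immature astrocytes, stood at 3969, 4260.0, 4536 and 4329.7 CPM in juvenile, 343, 584 and 966 CPM in adult and 639 and 688 CPM in aged libraries (log2 fold change 2.84, SE 0.55, edgeR adjusted p = 0.026), a call that was lost with Adult 2 and 3 alone (adjusted p = 0.24). *Scd2*, a desaturase, had 1449, 1610.4, 1640.2 and 1628 CPM in juvenile and 544, 584 and 439 CPM in adult libraries (log2 fold change 1.40, SE 0.24, edgeR adjusted p = 3.7e-04). *Dbi*, the acyl-CoA-binding protein, had 5661, 5738, 7505 and 8007 CPM and 2006, 2785 and 3104 CPM (log2 fold change 1.29, SE 0.22, edgeR adjusted p = 4.6e-04). *Scd2* and *Dbi* were called with either adult unit alone and did not overlap between these ages. *Hmgcs1*, of the mevalonate pathway, fell from 777, 949, 965 and 711 CPM in juvenile to 270.3 and 287 CPM in aged astrocytes (-1.50 log2 (SE 0.29, edgeR adjusted p = 9.8e-04)).

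Of 22 tested genes of immature and radial glia, 3 were higher in juvenile than adult astrocytes (*Fabp7*, *Tnc* and *Ptn*) and none was lower. Of all genes 3.79% were higher and 5.85% lower, and the list median was 0.92 log2. Without cells that carried other types' transcripts 9 of 19 were higher, beside 85 of 1360 over all genes tested there. Between aged and juvenile astrocytes 9 were lower and 4 higher, beside 8.7% and 9.94% of all genes. Among the former, *Marcks*, a regulator of actin, stood at 856, 726, 593 and 498 CPM in juvenile and 11.8 and 52.6 CPM in aged libraries (-4.33 log2 (SE 0.72, edgeR adjusted p = 0.0069)). *Sox4* went from 231, 167, 129.8 and 109 CPM to 11.8 and 9.56 CPM (-3.75 log2 (SE 0.95, edgeR adjusted p = 0.033)).

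Ribosomal protein genes were higher in juvenile astrocytes in 41 of 101 tested cases, and none was lower, beside 3.79% and 5.85% of all genes. With Adult 1 as the only control 59 were, and with Adult 2 and 3 alone 1 was. Between aged and juvenile astrocytes 73 were lower in aged cells and none higher, beside 8.7% and 9.94% of all genes. EAE astrocytes had 15 higher than adult ones and none lower, beside 1.26% and 0.452% of all genes. The 15 became 1 without cells that carried other types' transcripts. The genes of the clock and glucocorticoid list had 2 of 12 lower in juvenile than adult astrocytes (*Per1* and *Per3*), beside 5.85% of all genes. A count of 2 is not read as a change of the list. *Per3* had edgeR adjusted p = 0.092 without cells that carried other types' transcripts. The immediate early genes had none of 15 called.

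Some immune genes were lower in juvenile cells. Macrophage and monocyte genes moved with them, at a sum of 20.2 to 41.8 CPM in juvenile, 103 to 275 CPM in adult and 184 and 263 CPM in aged astrocytes, whereas microglia genes, at 294 to 669, 469 to 1552 and 733 to 989 CPM, overlapped between juvenile and adult libraries. Endothelial genes, whose sums are given above, were also lower in juvenile than adult astrocytes without overlap. The part of these other cell types in the results was not tested. Of 18 tested genes of MHC and antigen presentation, 3 were lower in juvenile than adult astrocytes (*B2m*, *H2-K1* and *H2-D1*), beside 5.85% of all genes. The list median was -1.06 log2, and *B2m* had edgeR adjusted p = 0.067 without cells with oligodendrocyte lineage or neuron transcripts. In aged astrocytes 5 were higher than in juvenile ones, beside 9.94% of all genes. *H2-K1*, a class I heavy chain, stood at 52.6, 49.9, 56.1 and 48.8 CPM in juvenile, 169, 138 and 264 CPM in adult and 165 and 172 CPM in aged astrocytes (log2 fold change -1.98, SE 0.29, edgeR adjusted p = 7.5e-05; without cells that carried other types' transcripts, adjusted p = 0.0015). ECs had 106 CPM in juvenile and 628 CPM in adult libraries, and the change was not called as different between the cell types (difference of 0.61 log2, edgeR adjusted p = 0.47). *Psmb8*, a subunit of the immunoproteasome, had 6.93, 8.04, 0.877 and 5.43 CPM in juvenile and 27.4 and 43.01 CPM in aged libraries (2.91 log2 (SE 0.63, edgeR adjusted p = 0.0021)). Of 16 interferon-induced genes 2 were lower in juvenile than adult astrocytes (*Ifi27* and *Bst2*), beside 5.85% of all genes. A count this small is not read as a change of the list. *Bst2* was called in 5 of 19 alternatives and had edgeR adjusted p = 0.49 without cells that carried other types' transcripts.

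**Figure D3:**
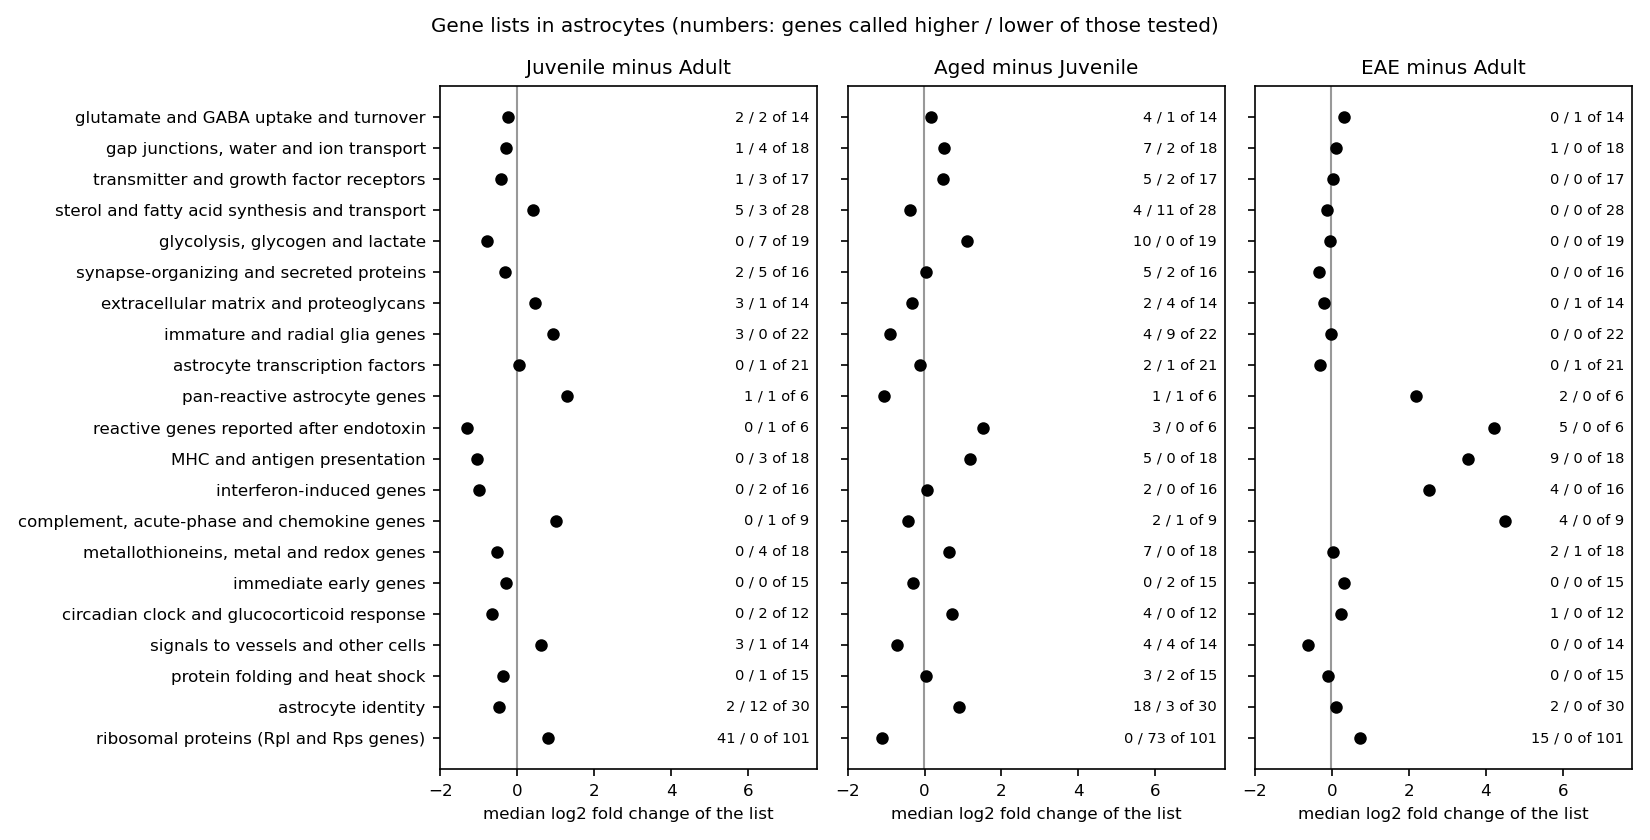
Gene lists in astrocytes for juvenile minus adult, aged minus juvenile and EAE minus adult. Each dot is the median log2 fold change of the tested genes of a list, the gray line is the median of all 4427 genes, and the numbers give genes called higher and lower of those tested; the glycolysis list sits at -0.78 on the left and 1.10 in the middle, and the MHC list at 3.54 on the right.

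Aged and adult astrocytes were compared to ask what changes between maturity and 18 months. No gene of 4427 was called in either direction (0.0%) by edgeR, and the lowest adjusted p was 0.112. An unadjusted p under 0.05 was reached by 442 genes, and DESeq2 called 9 genes while giving no adjusted p for 3004. With Adult 1 as the only control 6 genes were lower in aged astrocytes and none was higher. The genes with the lowest p that were higher in aged astrocytes are given by their values. *Cst3*, the protease inhibitor cystatin C, stood at 16534, 14372 and 13149 CPM in adult and 28359 and 32327 CPM in aged libraries (log2 fold change 0.94, SE 0.21, edgeR adjusted p = 0.11). *Timp4*, an inhibitor of metalloproteinases, had 201, 378 and 146 CPM and 568 and 540.0 CPM (log2 fold change 1.26, SE 0.28, edgeR adjusted p = 0.11), and *Pdlim4* had 73.9, 103 and 58.6 CPM and 219 and 248 CPM (log2 fold change 1.54, SE 0.35, edgeR adjusted p = 0.11). These 3 were chosen by their p, so that their libraries lie apart is no further result. Lower in aged astrocytes, and likewise not called, were *Hopx* (259, 344 and 205 CPM adult and 90.1 and 90.8 CPM aged), *Gpx8* (95.02, 0 and 58.6 CPM and 0 and 9.56 CPM) and *Ptgds* (544, 138 and 205 CPM and 90.1 and 52.6 CPM). None of the fixed gene lists had a called member.

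In relation to ECs of the same libraries, 112 of 13794 genes (0.812%) had an aged-minus-adult difference that was called as different between the cell types. In 101 of them the difference was higher in astrocytes, which a fall in ECs gives as well as a rise in astrocytes. *Cst3*, *Timp4* and *Pdlim4* had a difference of differences of 1.35, 2.84 and 2.62 log2, which is a description, because they were chosen by their p in the same astrocytes. *Cst3* had 2774 CPM in adult and 2706 CPM in aged ECs, and *Timp4* had 3.54 and 2.26 CPM. The test shares 1 estimate of spread between the cell types. Without Aged 1 the count was 34, without Adult 1 it was 61.

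Aged and juvenile astrocytes, which the adult units do not enter except through the shared spread, differed in 440 genes that were higher in aged cells (9.94%) and 385 that were lower (8.7%). Without cells that carried other types' transcripts 168 were higher and 171 lower of 1360 tested. With no filter on low counts 447 were higher and 672 lower of 18820. With libraries kept apart and the replicate number as a block these were 716 and 862 of 6643. The larger direction thus depended on the setting. In all 298 were called without Aged 1, 328 without Aged 2 and 540 without Juvenile 1 and 2. Of the 30 astrocyte identity genes 18 were higher in aged astrocytes and 3 lower (*Gfap*, *Cpe* and *Ptprz1*). Juvenile against adult astrocytes gave 12 lower and 2 higher (*Gfap* and *Cpe*), beside 5.85% and 3.79% of all genes. The rule asks for a fixed count of marker UMIs, and juvenile cells were deeper. Median marker levels were 13019 to 15635 CPM in juvenile and 22581 and 21739 CPM in aged astrocytes. The part of this choice in the identity counts was not tested. Without cells that carried other types' transcripts, the identity sum was 58612 to 71355 CPM in juvenile, 54676 to 68585 CPM in adult and 79370 and 82808 CPM in aged libraries. *Cldn10*, a claudin, stood at 410.0, 463, 692 and 688 CPM in juvenile and 1908 and 2356 CPM in aged libraries (2.03 log2 (SE 0.25, edgeR adjusted p = 3.0e-06)). *S100b*, a calcium-binding protein used as an astrocyte marker, had 163, 224, 220.2 and 214 CPM and 486 and 416 CPM (1.25 log2 (SE 0.25, edgeR adjusted p = 9.5e-04)), with 227, 481 and 293 CPM in the adult libraries, above the juvenile and overlapping with the aged ones. *C4b*, the complement component C4, had 33.2, 16.1, 31.6 and 24.96 CPM in juvenile and 58.8 and 81.2 CPM in aged astrocytes (1.46 log2 (SE 0.35, edgeR adjusted p = 0.0043)), and was not called without cells that carried other types' transcripts (adjusted p = 0.11).

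*Apod*, an apolipoprotein, fell from 287, 322, 296 and 139 CPM in juvenile to 3.92 and 4.78 CPM in aged astrocytes (-5.75 log2 (SE 0.60, edgeR adjusted p = 6.5e-07)). *Apod* is also expressed in ECs here, at 228 CPM in juvenile and 118 CPM in aged cells. Of 21 tested transcription factor genes 2 were higher in aged astrocytes (*Rorb* and *Dbx2*) and 1 was lower (*Nfib*), shares no larger than the 9.94% and 8.7% over all genes. Neither *Rorb* nor *Dbx2* was called without cells that carried other types' transcripts (adjusted p = 0.052 and 0.074). *Rorb* stood at 193, 214, 253 and 237 CPM in juvenile and 489.7 and 444 CPM in aged libraries (1.17 log2 (SE 0.25, edgeR adjusted p = 0.0019)), and *Nfib* at 449, 378, 459 and 487 CPM and 262 and 201 CPM (-0.82 log2 (SE 0.27, edgeR adjusted p = 0.033)).

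EAE and adult astrocytes were compared to ask how the cells differ at the peak of disease. Of 4427 genes, 56 were higher in EAE (1.26%) and 20 lower (0.452%). With Adult 1 as the only control 52 were higher and 25 lower. With Adult 2 and 3 alone 11 were higher and 4 lower, and 14 of the 76 calls were made there too. The calls also moved with units outside the comparison, to 48 without Aged 1, 138 without Juvenile 1 and 2 and 135 without Juvenile 3 and 4. Of 18 tested genes of MHC and antigen presentation 9 were higher in EAE and none lower, at a list median of 3.54 log2 against -0.03 over all genes. The endotoxin-associated reactive genes had 5 of 6 higher (*H2-T23*, *Serping1*, *H2-D1*, *Psmb8* and *C4b*), the complement and acute-phase genes 4 of 9, and the interferon-induced genes 4 of 16. The lists share members. Of the MHC genes 5 of 19 were higher with Adult 1 alone, 4 of 19 with Adult 2 and 3 alone and 8 of 12 without cells that carried other types' transcripts. In the last of these settings 35 of 1360 genes were higher over all. Markers of immune cells moved in part with these lists. Macrophage and monocyte genes summed to 275 and 3019 CPM in EAE 1 and 2 against 103 to 275 CPM in adult astrocytes, and lymphocyte genes to 160.2 and 618 CPM against 29.3 to 52.8 CPM, while microglia genes overlapped, at 950 and 1625 CPM against 469 to 1552 CPM.

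*B2m* (chr2:122147686-122153083, + strand), the light chain of MHC class I, stood at 2815 and 3771 CPM in EAE and 469.8, 481 and 293 CPM in adult astrocytes (log2 fold change 2.96, SE 0.27, edgeR adjusted p = 4.4e-07). It was detected in 29 of 33 and 29 of 31 EAE astrocytes, with at most 58 of 246 and 51 of 311 UMIs in 1 cell. *H2-K1* (chr17:33996017-34000347, - strand) had 1602 and 1309.5 CPM in EAE and 169, 138 and 264 CPM in adult astrocytes (log2 fold change 3.01, SE 0.28, edgeR adjusted p = 4.4e-07). *H2-D1* (chr17:35262730-35267499, + strand), the other class I heavy chain, had 1705 and 2013 CPM and 243, 68.8 and 264 CPM (log2 fold change 3.11, SE 0.30, edgeR adjusted p = 6.3e-07). *H2-K1* was found in 29 and 28 and *H2-D1* in 30 and 29 cells of EAE 1 and 2. In all 3 genes both EAE libraries lay above all 9 others, and all 3 were called in each of the 19 alternatives. *H2-K1* and *H2-D1* are closely similar genes, and reads that match both may be lost or assigned to either.

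*Psmb8*, of the immunoproteasome, had 366 and 279 CPM in EAE and 26.4, 0 and 0 CPM in adult astrocytes (log2 fold change 4.04, SE 0.62, edgeR adjusted p = 5.7e-04). *Tap1*, which carries peptides to MHC class I, had 286 and 182 CPM and 10.6, 0 and 0 CPM (log2 fold change 4.87, SE 0.87, edgeR adjusted p = 0.0021; with Adult 2 and 3 alone, adjusted p = 0.093). *H2-T23*, a nonclassical class I gene, had 595 and 230.4 CPM in EAE, with 27 of 52 UMIs of EAE 1 in 1 cell, and 21.1, 34.4 and 0 CPM in adult astrocytes (log2 fold change 4.37, SE 0.74, edgeR adjusted p = 0.0066). *H2-T23* was not called with Adult 1 alone (adjusted p = 0.13). *Igtp*, an interferon-induced GTPase, stood at 687 and 182 CPM in EAE and 26.4, 0 and 29.3 CPM in adult cells (log2 fold change 4.19, SE 0.66, edgeR adjusted p = 0.0027), with 20 of 60 UMIs of EAE 1 in 1 cell, and it too was lost with Adult 1 alone (adjusted p = 0.087). *Bst2*, which tethers virions to the cell surface, had 423 and 303 CPM and 63.3, 34.4 and 87.9 CPM (log2 fold change 2.52, SE 0.44, edgeR adjusted p = 0.0017; with Adult 2 and 3 alone, adjusted p = 0.15).

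The promoters of these genes were searched because many interferon-induced genes carry a GAAA repeat near their start. GAAA, any 2 bases and GAAA again were looked for on both strands within 250 bases before the start site in RefSeq promoters of GRCm38.p6. They occurred in 936 of 27025 promoters (3.463%), in 100 of 3294 genes tested in astrocytes (3.036%), in 14 of 37 genes of the MHC and interferon lists (37.84%) and in 5 of the 13 called members of these lists that had a promoter in the table (38.46%). The called members therefore held the letters about as often as the lists they belong to. For each of these 5 genes 1 match is shown in the direction of the gene, in capitals, and it reads as its reverse complement in *H2-T23*. In *Bst2* and *Irgm1* another match overlaps its end and is left in lower case.
B2m, chr2:122147523-122147582: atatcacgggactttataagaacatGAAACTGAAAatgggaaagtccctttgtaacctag
H2-T23, chr17:36032791-36032850: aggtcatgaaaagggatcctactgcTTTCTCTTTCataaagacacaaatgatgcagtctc
Bst2, chr8:71537568-71537627: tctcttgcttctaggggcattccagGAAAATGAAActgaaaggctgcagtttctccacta
Igtp, chr11:58199497-58199555: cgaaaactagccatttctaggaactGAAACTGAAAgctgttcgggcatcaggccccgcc
Irgm1, chr11:48871421-48871475: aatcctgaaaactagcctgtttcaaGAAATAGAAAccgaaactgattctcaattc
The match in capitals ended 129, 114, 120, 24 and 20 bases before the start site of *B2m*, *H2-T23*, *Bst2*, *Igtp* and *Irgm1*. A match of letters does not show that a factor binds there.

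*C4b* (chr17:34728380-34743882, - strand), the complement component C4, stood at 366 and 364 CPM in EAE and 15.8, 34.4 and 0 CPM in adult astrocytes (log2 fold change 4.51, SE 0.51, edgeR adjusted p = 6.1e-06), and was found in 18 of 33 and 14 of 31 EAE cells. *Serping1*, the inhibitor of complement C1, had 160.2 and 109 CPM in EAE and 1 adult UMI (34.2 times by counts, 95% interval 5.56 to 1409; log2 fold change 5.03, SE 1.01, edgeR adjusted p = 0.0067; with Adult 2 and 3 alone, adjusted p = 0.17). *Lcn2*, lipocalin 2, had 606 and 133 CPM in EAE and no UMI in adult astrocytes, at least 31.7-fold higher in EAE against 3 UMIs over the adult group (edgeR adjusted p = 0.0021; with Adult 2 and 3 alone, adjusted p = 0.30). However, 50 of 53 *Lcn2* UMIs of EAE 1 lay in 1 cell, and ECs of the EAE libraries had 995 CPM. The haptoglobin gene *Hp* was at least 11.9-fold higher in EAE, with 24 UMIs in 7 cells. Neither *Hp* nor *Il1b* was called with Adult 1 alone (adjusted p = 0.17 and 0.21) or with Adult 2 and 3 alone (adjusted p = 0.41 and 0.38). *Il1b*, which encodes interleukin 1 beta and is typical of myeloid cells, had 20 of 34 UMIs of EAE 2 in 1 cell and 1123 CPM in EAE microglia.

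Not all changes in EAE were immune genes. *Mfsd2a* (chr4:122946850-122961188, - strand), a carrier of lysophospholipids, had 515 and 521 CPM in EAE and 127, 34.4 and 0 CPM in adult astrocytes (log2 fold change 2.47, SE 0.41, edgeR adjusted p = 0.0015). In ECs, where the gene is known for its role in the blood-brain barrier, it had 219 CPM in EAE and 377 CPM in adult cells, and the difference between the cell types was 3.13 log2 (edgeR adjusted p = 5.8e-13). *Etnppl* had 664 and 449 CPM in EAE and 143, 68.8 and 29.3 CPM in adult astrocytes (log2 fold change 2.30, SE 0.36, edgeR adjusted p = 9.0e-04). *Gjb6* had 1671 and 1746 CPM and 633, 688 and 498 CPM (log2 fold change 1.50, SE 0.25, edgeR adjusted p = 0.0012). The nuclear noncoding RNA *Neat1* had 1190.1 and 1237 CPM and 359, 241 and 264 CPM (log2 fold change 1.95, SE 0.30, edgeR adjusted p = 5.7e-04). These 4 did not overlap between EAE and adult libraries and were called with either adult unit alone. Both properties were used in choosing genes to name, so neither is a further result. *Fth1*, the ferritin heavy chain, had 4589 and 5019.8 CPM and 2106, 1857 and 1728 CPM (log2 fold change 1.33, SE 0.22, edgeR adjusted p = 0.0012).

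*Gfap* was higher in EAE, at 664 and 327 CPM against 106, 34.4 and 205 CPM in adult astrocytes (log2 fold change 2.14, SE 0.35, edgeR adjusted p = 0.0012). It was not called with Adult 2 and 3 alone (adjusted p = 0.10) or without cells that carried other types' transcripts (adjusted p = 0.71), and its EAE level was below that of juvenile astrocytes in every library. Of the 6 pan-reactive genes tested 2 were higher in EAE, *Gfap* and *Lcn2*, and of the 3 ischemia-associated genes none was, beside 1.26% of all genes. Neither count is read as a change of its list.

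**Figure D4:**
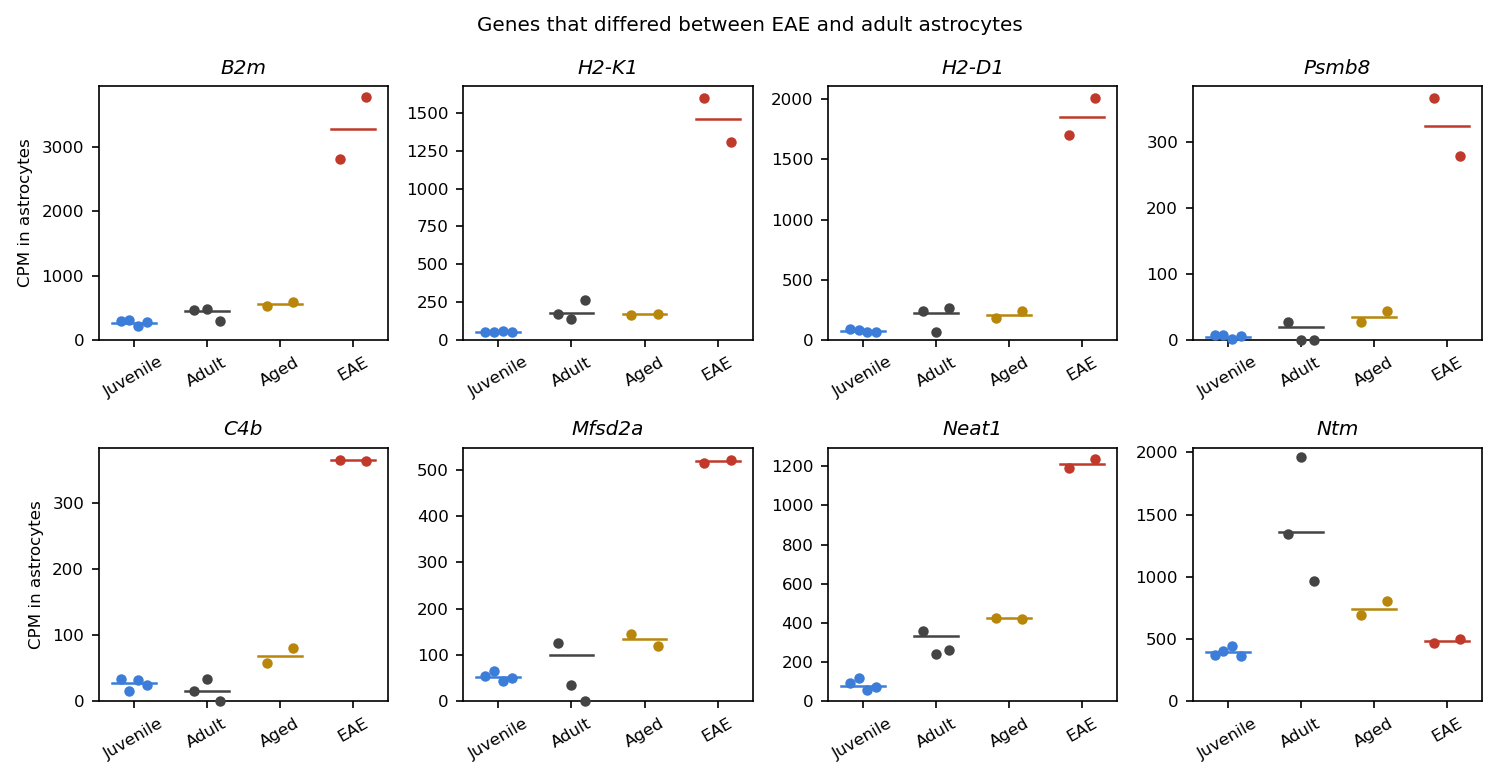
Levels of 8 genes called between EAE and adult astrocytes in each library. Points are libraries in CPM on a linear axis from 0 and bars the level over all astrocytes of a group; both EAE points lie above all adult points in *B2m*, *H2-K1*, *H2-D1*, *Psmb8*, *C4b*, *Mfsd2a* and *Neat1*, and below them in *Ntm*.

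The genes that were lower in EAE were fewer. Lack of overlap between libraries was a condition for naming the largest changes, so it is no further result for them. *Ntm*, high in adult astrocytes, stood at 469 and 497 CPM in EAE and 1341, 1959.8 and 966 CPM in adult libraries (log2 fold change -1.48, SE 0.25, edgeR adjusted p = 0.0012), and it was the 1 named gene that was lower with either adult unit alone. *Rorb*, a nuclear receptor, had 137 and 158 CPM and 670.4, 584 and 410.0 CPM (log2 fold change -1.99, SE 0.33, edgeR adjusted p = 0.0012). *Hopx*, a homeodomain protein without DNA-binding activity, had 34.3 and 72.8 CPM and 259, 344 and 205 CPM (log2 fold change -2.28, SE 0.45, edgeR adjusted p = 0.0063). *Slc7a11*, the cystine-glutamate exchanger, had 103 and 169.8 CPM and 449, 378 and 469 CPM (log2 fold change -1.67, SE 0.35, edgeR adjusted p = 0.010). *Spry2*, an inhibitor of receptor tyrosine kinase signals, had 137 and 121 CPM and 465, 584 and 205 CPM (log2 fold change -1.71, SE 0.38, edgeR adjusted p = 0.016; without cells that carried other types' transcripts, adjusted p = 0.26). The last 4 did not overlap either, and were not called with Adult 2 and 3 alone, with adjusted p of 0.076, 0.11, 0.17 and 0.30. *Clasp2*, *Pfas* and *Pdcd4* were lower as well (log2 fold changes -2.36, -2.50 and -2.0), the first with adjusted p = 0.053 without cells that carried other types' transcripts. *Clasp2* and *Pfas* were not called with Adult 2 and 3 alone (adjusted p = 0.065 and 0.34), nor *Pdcd4* with Adult 1 alone (adjusted p = 0.052). The called *Gm6166*, *Gm10250* and *Gm5506* are pseudogenes that share reads with their parent genes, and their values are uncertain.

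ECs of the same libraries, which share the free RNA of each cell suspension, were used to ask which EAE differences went further in astrocytes. Of 13794 genes, 166 (1.2%) differed between the cell types, 107 of them with a higher EAE-minus-adult value in astrocytes (127 of 169 with size factors by RLE). The median over all genes was -0.17 log2, -0.02 with RLE and 0.27 without Adult 1. Most of the genes below were named for their change in astrocytes, which enters this comparison. Without Adult 1 the count was 73, and without EAE 1 it was 106. *B2m* rose in ECs too, from 2938 to 7002 CPM, but less on the log2 scale (difference between the cell types 1.41, edgeR adjusted p = 8.4e-05). The difference was 1.73 for *H2-D1* (edgeR adjusted p = 5.5e-06), 1.14 for *H2-K1* (edgeR adjusted p = 0.038) and 2.45 for *Psmb8* (edgeR adjusted p = 0.0057). For *C4b* it was 0.96 (edgeR adjusted p = 0.91) and for *Gfap* 0.88 (edgeR adjusted p = 0.86), with 14.8 and 1.60 CPM in EAE ECs. *Fth1* rose in both cell types with a difference of -0.67 (edgeR adjusted p = 0.25). *Gjb6* differed by 2.77 log2 (edgeR adjusted p = 2.9e-08) with 3.48 CPM in adult and 1.75 CPM in EAE ECs.

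For juvenile minus adult, 469 of 13794 genes (3.4%) differed between astrocytes and ECs, 318 of them with a higher value in astrocytes. The count was 222 without Adult 1, 253 without Juvenile 1 and 2 and 261 without Juvenile 3 and 4. The median of this difference over all genes was 0.20 log2 and not 0. It was 1.09 log2 without Adult 1, so single differences are to be read against an offset that depends on that library. *Gjb6* was -1.38 (edgeR adjusted p = 0.013) and *F3* -1.73 (edgeR adjusted p = 0.0064), a larger juvenile deficit in astrocytes in this fit. Both were named for their change in astrocytes, which enters this comparison. *Clu* was 1.25 (edgeR adjusted p = 6.6e-05), because its juvenile deficit was larger in ECs, at 73.6 against 348 CPM. The nuclear noncoding RNA *Malat1*, which was higher in adult than juvenile astrocytes, at 62382, 68692, 67095 and 66334 CPM in juvenile, 152610, 127110 and 118580 CPM in adult and 99694 and 100600 CPM in aged libraries, was not called as different from ECs (difference 0.10, edgeR adjusted p = 0.92).

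Shares of positive cells were compared after each cell was thinned to 1500 UMIs, because juvenile cells were deeper. At least 1 *Gfap* UMI was found in 31.5%, 29.3%, 41.5% and 39.8% of juvenile, 15.7%, 0 and 20% of adult, 16.9% and 12.5% of aged and 32.0% and 21.7% of EAE astrocytes. The Clopper-Pearson 95% intervals, for counting error only, were 22.2% to 37.3% in Juvenile 2, 7.02% to 28.6% in Adult 1, 14.9% to 53.5% in EAE 1 and 7.46% to 43.7% in EAE 2. The juvenile shares lay above the adult and aged ones, and EAE 2 was close to Adult 3. Thinning left out 18 to 37 juvenile, 5 to 26 adult, 19 to 26 aged and 8 EAE cells per library as too shallow. The 0 in Adult 2 rests on 10 cells, which allows a share of up to 30.0% (3 counts of the cells thinned). In ECs at most 0.60% and in microglia at most 1.52% of cells were positive. Over units the share was 35.6% in juvenile and 12.8% in adult astrocytes (exact permutation test, two-sided, p = 0.3333), 1.86 percentage points higher in aged than adult (exact permutation p = 0.667) and 14.03 points higher in EAE than adult (exact permutation p = 0.3333). With Adult 1 alone the aged difference was -0.986 points. Without thinning the shares were 38.9%, 38.5%, 55.0% and 50.4% in juvenile, 14.3%, 6.67% and 26.7% in adult, 22.7% and 25.3% in aged and 36.4% and 16.1% in EAE astrocytes.

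Cells holding 2 or more UMIs of the cell cycle list made up 12.3%, 9.33%, 8.85% and 8.23% of juvenile astrocytes. Adult 1 had 3.92% (Clopper-Pearson 95% interval 0.478% to 13.5%) and Adult 2 and 3 had 0 of 10 cells each, which allows a share of up to 30.0% by the same 3 counts. The aged libraries had 1.41% and 0 of 56 cells, which allows up to 5.36%, and the EAE libraries had 8.0% and 0 of 23 cells, which allows up to 13.04%. The juvenile mean over units was 9.73% and the adult 1.96% (exact permutation test, two-sided, p = 0.3333, the smallest possible). The shares moved with the settings. Thinned to 1000 UMIs, the shares were 6.01%, 7.69%, 6.83% and 4.21% in juvenile libraries and 4.55% in Adult 1, above Juvenile 4. With at least 16 marker UMIs per cell they were 5.15%, 9.52%, 6.11% and 5.74% in juvenile libraries and 4.0% in Adult 1. The difference between juvenile and adult units was 7.76 percentage points, and 3.92 and 4.59 points in these settings. Leaving out cells with oligodendrocyte lineage or neuron transcripts, at 1500 UMIs, gave 9.32%, 9.80%, 5.56% and 4.95% in juvenile libraries and 4.0% in Adult 1. Without thinning the shares were 25.9%, 26.04%, 20.9% and 16.04% in juvenile, 11.7%, 0 and 6.67% in adult, 3.09% and 5.33% in aged and 12.1% and 9.68% in EAE astrocytes. ECs had 11.8% to 23.6% in juvenile and 3.02% to 5.09% in other libraries, and microglia had 20.6% to 31.2% and 3.92% to 9.41%. Within each juvenile library the astrocyte share was below that of ECs, at 12.3% against 23.6%, 9.33% against 16.9%, 8.85% against 12.7% and 8.23% against 11.8%, and below that of microglia. The part of free RNA in these shares was not tested. In EAE 1 all 27 *Top2a* and all 10 *Mki67* UMIs of the astrocytes lay in 1 cell. Only 3 cell cycle genes passed the filter on low counts, and none was called between juvenile and adult astrocytes, whereas *Pcna* and *Cks2* were lower in aged than juvenile ones.

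**Figure D5:**
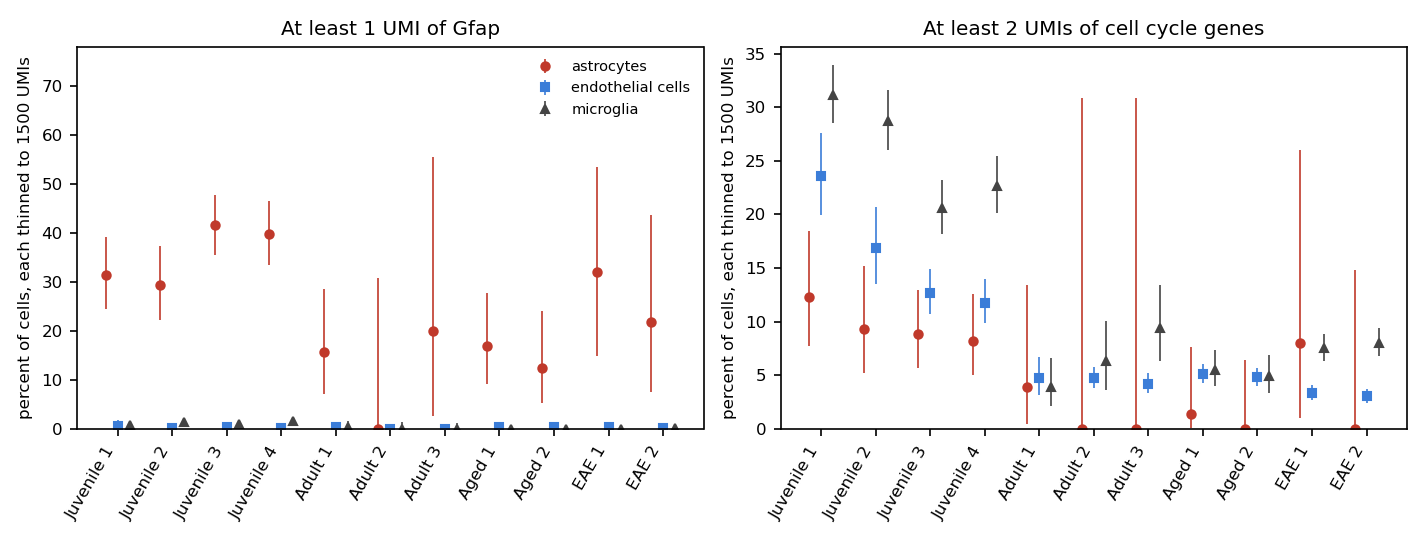
Percent of cells with at least 1 UMI of *Gfap* (left) and 2 or more UMIs of the cell cycle list (right) in each library after thinning to 1500 UMIs. Circles are astrocytes, squares ECs and triangles microglia, and vertical lines are 95% Clopper-Pearson intervals; *Gfap* shares of juvenile astrocytes lie between 29.3% and 41.5%, while ECs and microglia stay at or under 1.52%.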

How the data were processed

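Single-cell RNA-seq libraries of mouse brain cortex were deposited as UMI counts per gene and cell, 1 table for each of 11 libraries. The submitters' processing notes name the mm10 genome, bcl2fastq 2.19.1.403, UMI-tools 0.5.3, STAR 2.5.3a, Subread and featureCounts 1.6.1. The study's methods name other versions of UMI-tools, STAR and featureCounts, so which versions the authors used for these deposited counts is not settled. No normalization had been applied. Library totals ranged from 15755504 to 34326349 UMIs, and counting error is largest where a library held few astrocytes.

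Groups followed the labels. Cells are not replicates, so astrocyte UMIs were summed. Juvenile 1 with 2, Juvenile 3 with 4 and Adult 2 with 3, whose ECs differed by more than sampling noise but by less than other libraries of their group, were summed and counted once, leaving 8 units. In astrocytes the adult pair differed about as much as either did from Adult 1. Adult 2 and 3 held 15 astrocytes each, under the minimum of 20, which was applied to their sum. No source used here says that the units came from separate animals, so p-values measure the spread between these samples, which may be technical. Genes were tested with edgeR 4.0.16 (quasi-likelihood, TMM, filterByExpr; R 4.3.3, limma 3.58.1) over all units, with Benjamini-Hochberg adjustment at 0.05. DESeq2 1.42.0 was an alternative. Changes in astrocytes and ECs were compared by an interaction term with the unit as a block. Shares were compared by exact permutation tests (scipy 1.17.1, Python 3.11.15) after thinning each cell to 1500 UMIs. Doublets called by Scrublet (scanpy 1.11.5), 818 of 50625 cells, were kept and left out in an alternative. The scripts were tested on simulated data.

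The members, the 15 marker lists and the 21 gene lists were chosen with earlier results of these data known. Named genes were the 10 with the largest change in each direction among those called, at 50 CPM or more in the higher group with no overlap between libraries, without genes of the rule for the cells, mt-, Rpl and Rps genes and other cell types' markers. Up to 4 called members of each list were named, or the 2 of highest CPM where none was called. For the interaction 5 were named in each direction. Some members of the lists are not reported here. Members named as part of a count of 5 or fewer were named after their values were seen. Alternatives changed the scaling, filter, marker minimum, depth, second-marker cells, doublets, library pooling and replicate block, and left out each unit. The comparison of aged with juvenile astrocytes, the setting without cells holding 5 or more UMIs of another cell type, the setting with no minimum for Adult 2 and 3 and the naming of genes called with either adult unit alone were added after the data were seen. The setting without cells holding 5 or more UMIs of another cell type did not count the choroid plexus and erythrocyte lists.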

Additional observations from a re-analysis of the deposited data

Results flagged for a closer look

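*Serpinf1* and *Myoc*, both described above as higher in juvenile than in adult astrocytes, each had 1 juvenile library far from the other 3 by Dixon's test at 95%. *Serpinf1* stood at 199.72 CPM in Juvenile 4, against 291 to 305 CPM in the others. *Myoc* stood at 51.48 CPM in Juvenile 2, against 305 to 355 CPM in the others. Of 33 sets of values tried these 2 passed, and chance passes about 1 in 20.

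A difference between cell types was tested as the change of astrocytes minus the change of ECs on the log2 scale. Between juvenile and adult libraries the highest values were 12.135 for *Tmeff2*, 10.59 for *Lpar1*, 10.498 for *Enpp6*, 10.173 for *Rnf213* and 10.155 for *Rnd1*. Adult astrocytes held 0 UMIs of these 5 genes, so their fitted values depend on the prior count and bound nothing. The lowest was -8.5603 for *Apln*, which had 217 CPM in juvenile and 2.07 CPM in adult ECs and 28.2 and 71.2 CPM in astrocytes of the same ages. The other low values were -5.716 for *Mdga2*, -5.2213 for *Scarf1*, -5.1362 for *Chst1* and -4.7999 for *Fgd5*.

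Between aged and adult libraries the highest values were 5.042 for *Apoc1*, 4.7595 for *Gm17750*, 4.1964 for *Fbln1*, 4.1419 for *Gpr37* and 3.7181 for *Glrb*. None of the 5 was called between aged and adult astrocytes alone, where their changes were 0.85 to 1.35 log2. ECs had 3.19 to 8.44 CPM of each in adult and 0.581 to 1.29 CPM in aged libraries, with changes of -2.06 to -3.25 log2. The lowest value was -10.078 for *Mn1*, with no UMI in aged astrocytes. It was followed by -2.6186 for *Zfp783*, -1.81 for *Marcks*, -1.7353 for *Acsl6* and -1.6543 for *Abhd2*.

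Between EAE and adult libraries the highest values were 11.683 for *Cdca8*, 11.583 for *Cdk1*, 10.916 for *Oasl2*, 10.544 for *Rnf213* and 10.137 for *Iigp1*, all at 0 UMIs in adult astrocytes. In EAE 1, all 9 UMIs of *Cdca8* lay in 1 cell, and 13 of the 15 UMIs of *Cdk1* lay in 1 cell. The lowest values were -10.97 for *Ptges2*, -10.908 for *9430020K01Rik*, -10.899 for *Fam214b* and -10.831 for *Ace*, all at 0 UMIs in EAE astrocytes, and -4.8819 for *Chst1*.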

How the results depend on the processing

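Between juvenile and adult astrocytes 427 genes were called. The count was 643 with no filter on low counts, 148 with cells thinned to 1500 UMIs, 222 without cells holding 5 or more UMIs of another cell type's list and 257 by DESeq2. Leaving out 1 unit at a time gave 56 to 537. Between aged and adult astrocytes 0 genes were called by edgeR. There were 21 with no filter, 4 with at least 16 marker UMIs, 2 with thinned cells, 8 without cells holding another type's UMIs, 4 with libraries kept apart (Adult 1 then being the only control) and 9 by DESeq2, and 0 to 25 when 1 unit was left out. Between EAE and adult astrocytes 76 were called. The count was 194 with no filter, 122 with at least 16 marker UMIs, 38 with thinned cells and 15 to 138 when 1 unit was left out. Between aged and juvenile astrocytes 825 were called. The count was 323 with thinned cells, 339 without cells holding another type's UMIs, 521 by DESeq2 and 298 to 1040 when 1 unit was left out. For the difference between astrocytes and ECs, leaving out 1 unit gave 222 to 617 genes from juvenile to adult, 34 to 148 from aged to adult and 73 to 194 from EAE to adult. Thinned and left-out settings hold fewer UMIs or units. The cause of the other shifts was not tested.

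The aged-minus-adult difference in the share of cells with *Gfap* was 1.86 percentage points. It was -0.986 with libraries kept apart or without Adult 2 and 3, -0.343 without Aged 1, and -0.986 to 4.70 over all units left out. The same difference in the share of astrocytes among kept cells was 0.337 percentage points. It was -0.677 with libraries kept apart or without Adult 2 and 3, and -0.677 to 1.35 over all units left out. None of these could reach an exact p below 0.3333.

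With libraries kept apart and the replicate number as a block, 776 genes were called from juvenile to adult, 63 from aged to adult, 209 from EAE to adult and 1578 from aged to juvenile. For the cell type difference the block gave 324, 148 and 156. Deviations of juvenile, aged and EAE libraries with the same number correlated at -0.015 to 0.068. No adult library was in this comparison. Aged and EAE libraries gave 0.041 for both numbers, which are not separate values. Low correlations can also come from counting error where astrocytes are few. Whether the numbers pair the samples therefore cannot be decided from these values.

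No single gene named in the text reversed under any alternative run. Without Adult 1, 80 gene results lost their call and 149 did not. Without Adult 2 and 3 these were 35 and 194, without cells holding another type's UMIs 30 and 132, and with RLE size factors 1 and 228. Results whose gene was no longer tested in a setting are in neither of its counts. Depth was lowest in the adult and EAE units, at 63231 to 189429 astrocyte UMIs, against 1343526 and 2061417 in the juvenile units.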

Other observations

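The mitochondrial transcript *mt-Nd3*, a subunit of respiratory complex I, had no UMI in the astrocytes of either EAE library. It had 91.2 to 351 CPM in the astrocytes of the other 9 libraries. ECs, microglia and cells of choroid plexus type of both EAE libraries also had 0 CPM of *mt-Nd3*, whereas ECs of the other libraries had 40.2 to 104 CPM. The cause was not tested, and *mt-Nd3* was left out of the genes named for EAE.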
